A study of Homo sapiens with 6 samples.

Results

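The genes described here carry fatty acids through the cell: 40 genes of synthesis, desaturation, elongation, uptake and activation, storage and beta-oxidation, with 3 transcription factors of these pathways. They were taken from the 26485 rows of the count table by their symbols, and all 40 symbols were found. HuCCT1 cells, an established line from a human cancer of the bile duct (cholangiocarcinoma), were grown in DMEM-F12 with serum and antibiotics. Polyadenylated RNA was sequenced from 3 libraries (a, b and c) of the wild-type CRISPR clone 1 and 3 libraries (a, b and c) of clone 22, labelled AQP1 knockout and made with CRISPR/Cas9. Each genotype is 1 clone, so genotype and clone cannot be told apart, and whether a, b and c were separate cultures is not stated in the labels. The p-values therefore set the difference between the clones against the scatter among libraries of 1 clone, and that scatter may be technical. "Knockout" below means the libraries of clone 22, and a positive fold change means a higher level there.

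Fatty acids are built in the cytosol. ATP citrate lyase makes acetyl-CoA, acetyl-CoA carboxylase turns it into malonyl-CoA, and fatty acid synthase joins these units into palmitate. Elongases and desaturases of the endoplasmic reticulum lengthen the chain and add double bonds, acyl-CoA synthetases activate it, and acyltransferases load it onto glycerol for storage in lipid droplets. For burning, the carnitine shuttle carries long chains into mitochondria, where the beta-oxidation enzymes shorten them. SREBP transcription factors drive the synthesis genes when sterols are low, and PPAR factors with the coactivator PGC-1alpha drive oxidation genes.

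Libraries held 36925338 to 41724447 counts. Levels are counts per 1000000 counts of the library (CPM), and 3 counts, taken as the floor, equal 0.0719 to 0.0812 CPM. For the targeted gene AQP1 the counts of libraries a, b and c were 2, 8 and 10 in wild type, and 10, 7 and 7 in the knockout. The knockout over wild-type ratio of summed counts was 1.25, with an exact 95% counting interval of 0.662 to 2.39, and at so few counts the genotype label is not checked. Of 6 bile duct and epithelial markers all 6 fell in the knockout, with a summed level of 3303 to 3369 CPM in wild type and 1820 to 1851 CPM in knockout libraries. Adipocyte markers summed to 2.93 to 3.45 CPM and 1.91 to 2.63 CPM, and ADIPOQ, LEP and CIDEA were at 0 in all libraries. Of 8 hepatocyte markers 4 were at 0 in all libraries, and the list summed to 52.1 to 55.8 CPM and 84.1 to 91.4 CPM. Its tested genes SERPINA1 and FGB both rose, FGB from 0.0403 ± 0.0136 to 15.6 ± 1.09 CPM, although FGB was tested only because its knockout libraries passed the filter on low counts. Of 8 macrophage markers 3 were tested: CD68 and CD14 rose, CSF1R fell, PTPRC and AIF1 were at 0, and the sum was 110 to 115 CPM in wild type and 206 to 212 CPM in knockout, mostly CD68. Of 7 fibroblast markers 5 were tested and 4 rose, of which DCN likewise passed the filter only through the knockout, with sums of 15.8 to 18 CPM and 35.5 to 38.3 CPM. Of 6 endothelial markers 3 were tested and 0 passed in edgeR (1 at an unadjusted p under 0.05, TEK), with sums of 2.18 to 2.59 CPM and 2.15 to 3.06 CPM. The part of these markers in the results below was not tested.

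Genes of fatty acid synthesis were mostly lower in the knockout clone and genes of beta-oxidation were higher. Of the 22 listed genes of synthesis, desaturation, elongation, uptake and activation, 19 were tested, and of these 15 fell, 3 rose and 1 did not pass, with a median log2 fold change of -0.57. In the synthesis step alone, 4 of 5 genes fell, ACACA among them, and 1 rose. All 7 beta-oxidation genes were tested and rose, with a median of 0.45. Over all genes tested, 37.2% were called lower and 37.1% higher. Of 8 genes of storage and release 4 rose, 2 fell and 2 did not pass, with a median of 0.14. Of the 3 transcription factors, PPARA rose. The median over all 14405 genes tested was 0.01. A gene was called where the Benjamini-Hochberg adjusted p of edgeR's quasi-likelihood test, over all tested genes, was below 0.05.

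In all, 37 of the 40 genes were tested, of which 15 rose, 17 fell and 5 did not pass. Over all genes tested, 74.4% were called, 37.1% higher and 37.2% lower, so the share of these genes that was called lies near a high background. The steps differed in direction. At least 2-fold, 5 rose and 5 fell, where the background is 13.7% higher and 9.05% lower. The groups of libraries did not overlap in 35 of the 37, against 77.3% of all genes tested. ACADL passed the filter on low counts only through the knockout libraries, so a higher level in the knockout was built in for it. MLXIPL reached the minimum of 0.245 CPM in wild-type libraries b and c but not in a (0.222 CPM). It therefore needed a knockout library to pass, which does not fix its direction. Without ACADL, MLXIPL and ACACA, whose counts are described below, 14 rose and 16 fell of 34. In bulk RNA, fewer cells with a transcript and less of it per cell cannot be told apart.

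**Figure D1:**
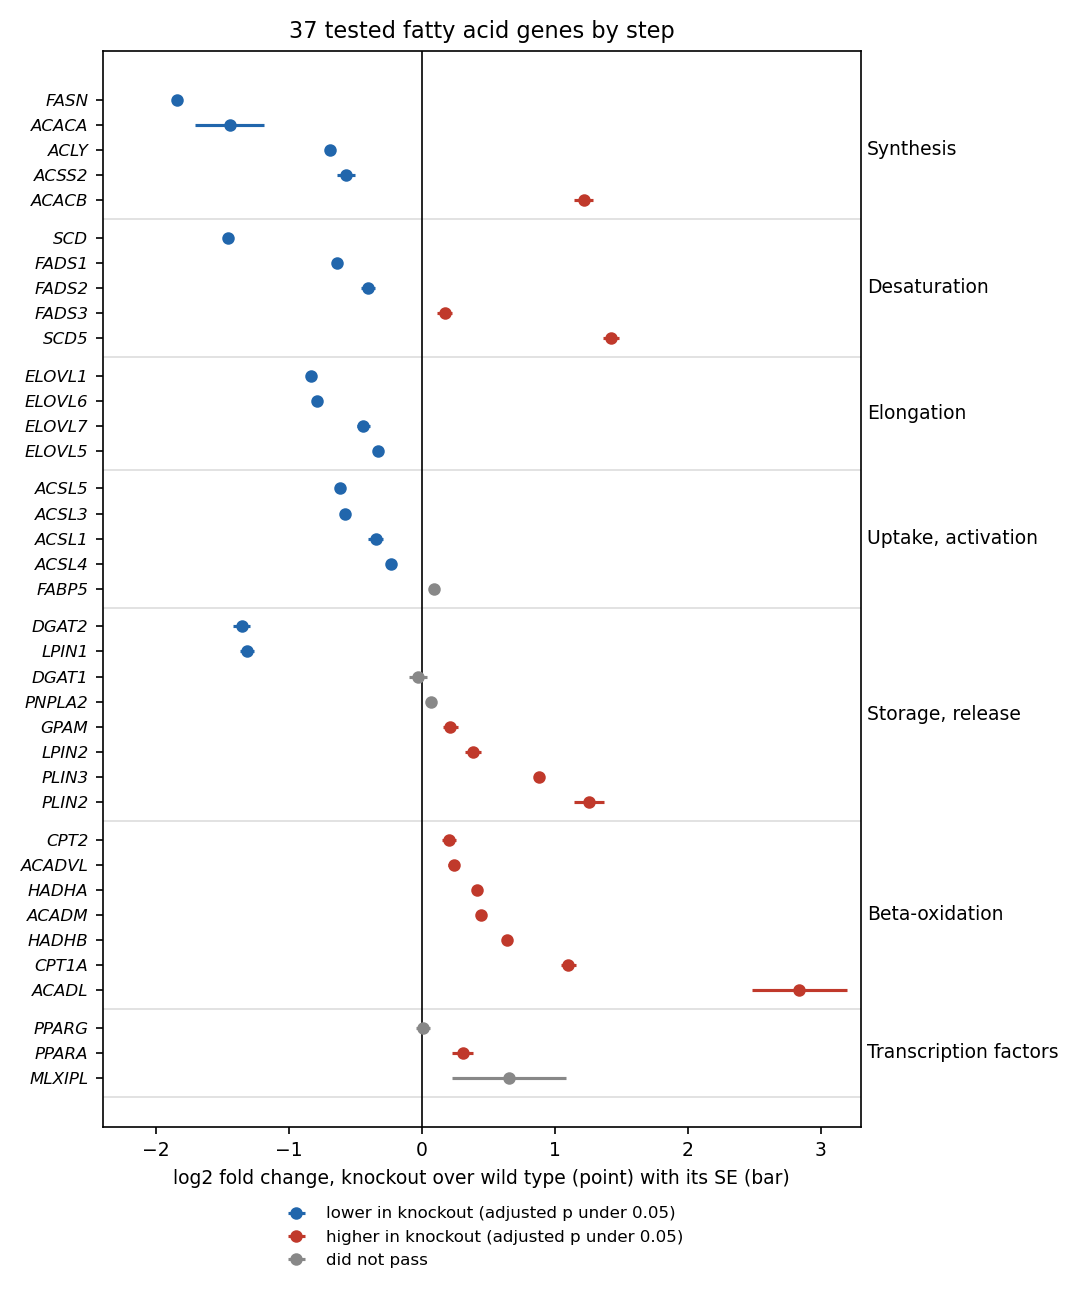
Log2 fold change of the 37 tested genes (x axis, knockout over wild type) with its standard error, grouped by step. The 4 elongases lie left of 0, the 7 beta-oxidation genes right of 0, and synthesis and desaturation hold genes on both sides.

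FASN, ACLY and ACSS2 of the synthesis step fell. FASN, the fatty acid synthase gene, had 390.4, 355 and 353 CPM in the wild-type libraries, in the order a, b, c, and 105, 107 and 106 CPM in the knockout libraries. The groups were far apart and the knockout libraries nearly equal. Its log2 fold change was -1.84 (SE 0.037, edgeR adjusted p = 4.28e-14). ACLY, the citrate lyase gene and the one with the most counts of this step in wild type, had 419, 417 and 409 CPM in wild type and 271, 269 and 260 CPM in knockout, without overlap (log2 fold change -0.69, SE 0.027, edgeR adjusted p = 2.58e-11). ACSS2, which makes acetyl-CoA from acetate, fell from 41.1 ± 3.41 to 28.7 ± 0.722 CPM (SD, n = 3 per group here and below; log2 fold change -0.57).

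The 2 acetyl-CoA carboxylase genes moved in opposite directions. ACACB, whose product sits at the mitochondrial surface where its malonyl-CoA inhibits carnitine palmitoyltransferase, had 9.72, 10.1 and 9.16 CPM in wild type and 23.2, 21.9 and 24.7 CPM in knockout. It rose by a log2 fold change of 1.22 (SE 0.072, edgeR adjusted p = 2.63e-09). ACACA, the cytosolic form that feeds synthesis, had 215, 222 and 211 counts in wild type and 120, 79 and 40 in knockout. That is 5.24 ± 0.166 and 1.98 ± 0.929 CPM, a log2 fold change of -1.45 (SE 0.261, edgeR adjusted p = 0.000194).

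The ACACA counts need care. Within the knockout group its highest CPM was 2.71 times its lowest, while the next widest range of any tested member with a mean of at least 50 counts was 1.36, for PLIN2 in wild type. Among 3474 tested genes with mean counts of 50 to 500, 12.5% had such a range above 2-fold in either group. Near ACACA (chromosome 17, 37084992 to 37406836, GRCh38) this was common: of 10 genes within 1 Mb with a mean of at least 20 counts, 8 had one. AATF, a neighbour named after its values were seen, had 746, 26 and 1328 counts in wild type and 48, 30 and 29 in knockout. TADA2A, on the other side, had 119, 591 and 73 counts in the knockout libraries. ACACA itself kept its direction and its call without each library in turn, with log2 fold changes of -1.83 to -1.14. How reads that align to more than 1 place of the build, alternate sequences included, were counted is not given in the sources used here, so these counts may not be the full counts of ACACA and its neighbours. The part of this local spread in the fall of ACACA was not tested.

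**Figure D2:**
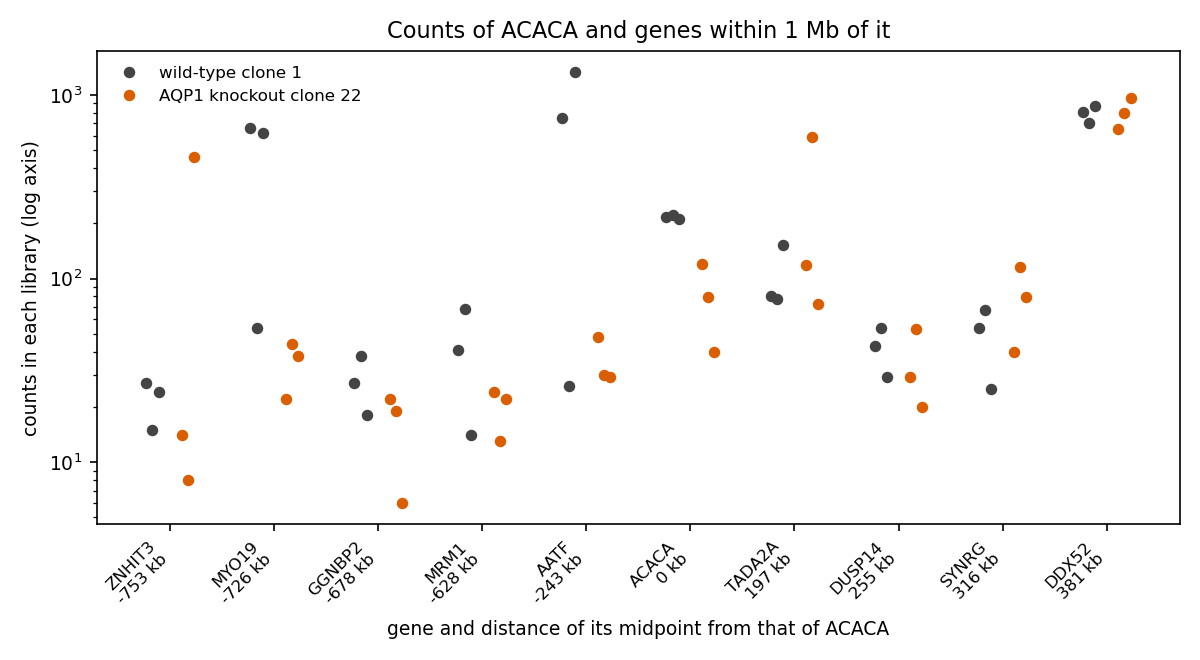
Counts in each library (log axis) of ACACA and of genes within 1 Mb that are on no cell marker list, in order along the chromosome. AATF, MYO19, ZNHIT3 and TADA2A scatter widely between libraries of 1 clone, while DDX52 does not.

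Among desaturases the main delta-9 enzyme gene fell and its paralogue rose. SCD, stearoyl-CoA desaturase, places the first double bond in palmitate and stearate. It had 419.9, 416 and 420.0 CPM in wild type, and 157, 160.5 and 157 CPM in the knockout libraries, with no overlap (log2 fold change -1.46, SE 0.024, edgeR adjusted p = 6.1e-15). SCD5, a second gene for the same reaction, had 10.7, 11.6 and 10.9 CPM in wild type and 31.6, 29.9 and 30.8 CPM in knockout, also without overlap (log2 fold change 1.42, SE 0.061, edgeR adjusted p = 8.05e-11). Per kilobase of annotated exon, SCD5 made up 3.20 ± 0.147% of the pair in wild type and 19.6 ± 0.65% in knockout. SCD remained the more abundant of the pair per length in both clones, at 29.5 ± 0.4 against 7.17 ± 0.207 CPM per kilobase in the knockout.

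The 250 bases before the RefSeq start of each of these paralogues are shown because the genes moved in opposite directions. Capitals mark CCAAT boxes (CCAAT, or ATTGG on the other strand), which NF-Y binds, and GC boxes (GGGCGG, or CCGCCC on the other strand), which SP1 binds. The SCD window is chr10:100346983-100347232 on the plus strand and the SCD5 window chr4:82798797-82799046 on the minus strand of GRCh38.p14, both written 5′ to 3′ along the gene.
SCD: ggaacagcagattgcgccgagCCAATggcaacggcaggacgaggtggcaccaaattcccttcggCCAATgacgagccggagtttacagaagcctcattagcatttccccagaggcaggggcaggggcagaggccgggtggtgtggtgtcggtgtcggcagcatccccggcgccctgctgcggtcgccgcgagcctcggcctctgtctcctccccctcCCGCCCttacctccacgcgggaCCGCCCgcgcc
SCD5: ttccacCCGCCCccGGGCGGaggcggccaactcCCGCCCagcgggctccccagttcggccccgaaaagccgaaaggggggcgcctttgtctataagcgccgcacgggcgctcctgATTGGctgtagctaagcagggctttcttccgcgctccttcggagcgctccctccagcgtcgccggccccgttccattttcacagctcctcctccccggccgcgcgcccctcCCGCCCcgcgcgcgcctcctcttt
SCD has CCAAT boxes that begin 229 and 186 bases before the start and GC boxes at 33 and 11. SCD5 has 1 CCAAT box at 135 and GC boxes at 244, 236, 217 and 24. Of all 35116 promoter windows of this length, 32% hold a CCAAT box and 42.6% a GC box.

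The front-end desaturases serve polyunsaturated fatty acids. FADS1 (delta-5) fell from 274 ± 6.08 to 183 ± 3.46 CPM (log2 fold change -0.64) and FADS2 (delta-6) from 35.8 ± 1.28 to 28 ± 0.65 CPM (-0.40). FADS3, which acts on sphingoid bases, rose slightly from 37.5 ± 1.32 to 43.9 ± 2.39 CPM (0.17, edgeR adjusted p = 0.0159). Leaving out wild-type library b ended this call (0.14, edgeR adjusted p = 0.051). These genes are neighbours on chromosome 11, where FADS1 and FADS2 share 2.81% and 3.84% of their exon bases with other genes, each other included.

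All 4 elongases that could be tested fell, out of 6. ELOVL5, which lengthens polyunsaturated chains and had the most counts of the family, had 311, 324 and 311 CPM in wild type and 264, 245 and 273 CPM in knockout. The groups were apart, but the difference was small (log2 fold change -0.33, SE 0.035, edgeR adjusted p = 1.04e-06). ELOVL1, which serves very long chains, fell from 190 ± 4.16 to 110.3 ± 3.96 CPM (log2 fold change -0.84). ELOVL6, which takes palmitate to stearate, fell from 174 ± 4.9 to 105 ± 2.18 CPM (-0.79), and ELOVL7 from 66.8 ± 1.28 to 51.1 ± 2.29 CPM (-0.44). Per length, ELOVL1 took 44.6 ± 1.01% of these 4 in wild type and 37.7 ± 1.76% in knockout, and ELOVL5 38.0 ± 0.809% and 45.5 ± 2.02%, so the order of these shares differed between the clones. That change of order rests on the annotated exon lengths, which may not be those of the transcripts present. In CPM, ELOVL5 lay above ELOVL1 in both clones.

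The other elongases were too low to be tested. ELOVL2 had 4, 4 and 3 counts in wild type and 18, 10 and 4 in knockout. The ratio of its summed counts was 3.03, with an exact 95% counting interval of 1.49 to 6.66 that leaves out the spread between libraries. ELOVL4 had 0 counts in all 6 libraries, which allows up to 0.0243 CPM over the wild-type group and 0.0253 CPM over the knockout group.

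Acyl-CoA synthetases, which activate long chains, fell by less than 2-fold, all 4 of those listed. ACSL4, which prefers arachidonate and had the most counts of its step in wild type, had 287, 283 and 275 CPM in wild type and 244, 244 and 258 CPM in knockout, without overlap (log2 fold change -0.23, SE 0.028, edgeR adjusted p = 4.46e-06). ACSL3 fell from 274 ± 3.59 to 191 ± 6.52 CPM (log2 fold change -0.58), ACSL5 from 116 ± 1.75 to 78.9 ± 1.22 CPM (-0.62) and ACSL1 from 42.4 ± 1.68 to 34.6 ± 1.09 CPM (-0.35). Per length, ACSL4 made up 37.9 ± 0.368% of the 4 in wild type and 43.5 ± 0.915% in knockout, a difference that was not tested. FABP5, a cytosolic fatty acid carrier, had 86.3 ± 3.68 and 95.3 ± 3.84 CPM and did not pass (log2 fold change 0.09, edgeR adjusted p = 0.0524). Its value passed under other scalings, for example at 0.14 with library totals alone (adjusted p = 0.00399). CD36, the membrane uptake receptor, had 0, 0 and 1 counts in wild type and 4, 6 and 0 in knockout and was not tested. The ratio of its sums was 10.4 with an exact 95% counting interval of 1.48 to 452.

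Among genes of storage and release, DGAT2 and LPIN1 of triglyceride assembly fell, and GPAM, LPIN2 and the lipid droplet coat genes PLIN2 and PLIN3 rose. DGAT2, which adds the third acyl chain, had 28.6, 28.8 and 30.3 CPM in wild type and 11.5, 11.7 and 12.4 CPM in knockout (log2 fold change -1.36, SE 0.061, edgeR adjusted p = 1.25e-10). The groups were well apart. An antisense gene shares 17.2% of its exon bases, and whether reads were counted by strand is not known from the sources used here. DGAT1, the other enzyme of that reaction, had 29.1 ± 2.47 and 29.6 ± 1.03 CPM and did not pass (log2 fold change -0.03, edgeR adjusted p = 0.699). Genes on both strands share 12.3% of the exon bases of DGAT1. Per length, DGAT1 was 39.7 ± 2.19% of the pair in wild type and 62.3 ± 0.187% in knockout.

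LPIN1, a phosphatidate phosphatase that makes diacylglycerol, had 58.9, 58.0 and 57.2 CPM in wild type and 24.7, 23.8 and 23.9 CPM in knockout (log2 fold change -1.32, SE 0.052, edgeR adjusted p = 3.59e-11). Its paralogue LPIN2 rose from 38.0 ± 2.66 to 51.4 ± 1.25 CPM (log2 fold change 0.38). Per length, LPIN1 was the larger of these in wild type, with 61.0 ± 1.54%, and the smaller in knockout, with 32.4 ± 0.252%. GPAM, which adds the first acyl chain to glycerol phosphate, rose from 26.8 ± 1.08 to 32.3 ± 1.69 CPM (0.21, edgeR adjusted p = 0.00527).

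The droplet coat gene PLIN2 had 6.07, 8.16 and 8.25 CPM in wild type and 20.5, 17.9 and 17.4 CPM in knockout (log2 fold change 1.26, SE 0.113, edgeR adjusted p = 2.18e-07). PLIN3, another coat gene and the one with the most counts of this step, had 102, 101 and 102 CPM in wild type and 204, 194 and 183 CPM in knockout (log2 fold change 0.88, SE 0.037, edgeR adjusted p = 6e-11). In both, each knockout library lay above each wild-type library. An antisense gene shares 21.5% of the exon bases of PLIN3. PNPLA2, the triglyceride lipase of droplets, had 65.3 ± 1.31 and 71.2 ± 2.04 CPM. Its groups did not overlap, but it did not pass (log2 fold change 0.07, edgeR adjusted p = 0.121) except with library totals alone (0.12, adjusted p = 0.0112). An antisense gene shares 13.7% of the exon bases of PNPLA2.

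**Figure D3:**
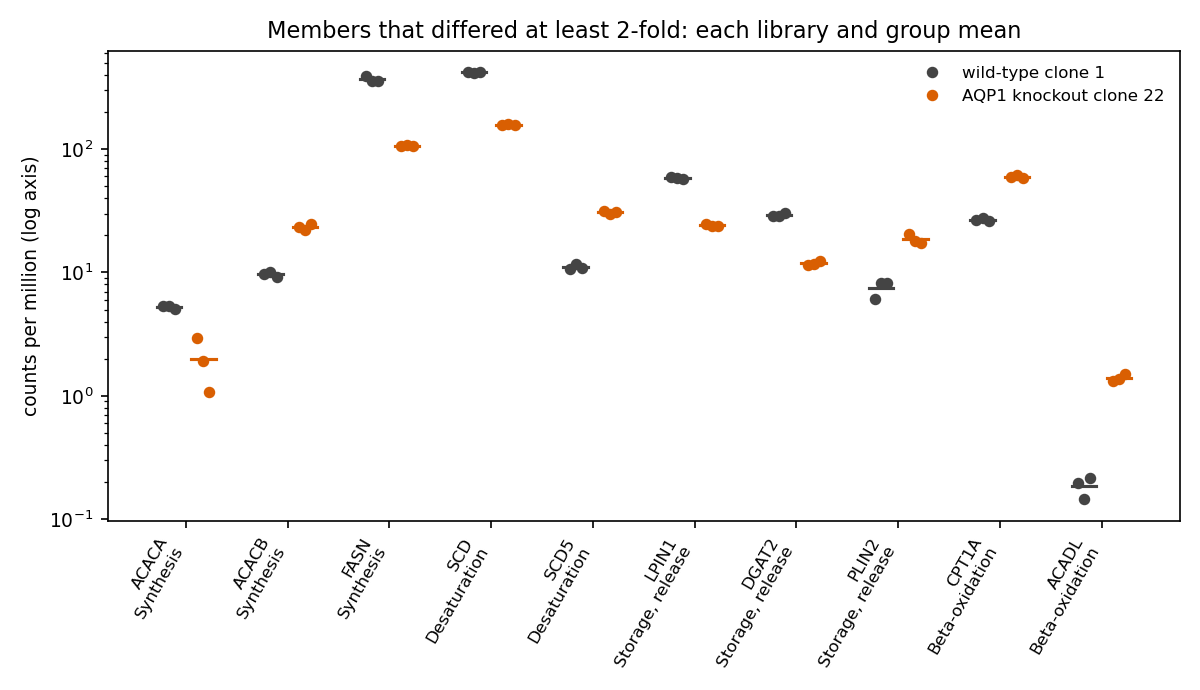
CPM (log axis) in each library, with the group mean as a line, of the 10 genes that passed and differed at least 2-fold. Libraries of a group lie close together except for ACACA in the knockout, from 2.94 down to 1.08 CPM.

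All 7 genes of mitochondrial beta-oxidation on the list rose. Tested instead against a 1.5-fold change (edgeR's glmTreat), only CPT1A and ACADL kept that call. CPT1A, the gate of the carnitine shuttle that malonyl-CoA inhibits, had 26.4, 27.9 and 26.1 CPM in wild type and 59.5, 61.4 and 58.2 CPM in knockout, a log2 fold change of 1.10 (SE 0.054, edgeR adjusted p = 3.55e-10). CPT2, which hands the chain back to coenzyme A inside, rose from 32.2 ± 0.391 to 38.6 ± 0.664 CPM (0.21, edgeR adjusted p = 0.0028). The fitted change was 2.15-fold for CPT1A and 1.15-fold for CPT2, and the difference between them was not tested. Antisense genes share 19.6% of the exon bases of CPT2.

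The acyl-CoA dehydrogenases open each round by chain length. ACADVL, for very long chains, had the most counts, with 274, 274 and 285 CPM in wild type and 332, 319 and 370.3 CPM in knockout (log2 fold change 0.24, SE 0.042, edgeR adjusted p = 0.000132). The knockout libraries spread more widely but stayed above wild type. ACADM, for medium chains, rose from 60.2 ± 2.18 to 85.1 ± 1.27 CPM (0.45). ACADL, for long chains, had 8, 6 and 9 counts in wild type and 54, 56 and 56 in knockout (log2 fold change 2.84, SE 0.356, edgeR adjusted p = 6.53e-06). Its level stayed low, at 1.40 ± 0.101 CPM in the knockout and 0.326 ± 0.0101% of the 3 dehydrogenases per length. ACADL passed the filter only through the knockout libraries, and without it 6 of 6 tested beta-oxidation genes rose, with a median of 0.43.

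HADHA and HADHB encode the alpha and beta subunits of the trifunctional protein, which completes the round for long chains. HADHA had 157, 155 and 153 CPM in wild type and 210.0, 217 and 217 CPM in knockout (log2 fold change 0.41, SE 0.025, edgeR adjusted p = 3.87e-09). HADHB had 66.7, 65.3 and 64.2 CPM in wild type and 109.7, 106 and 102 CPM in knockout (0.64, SE 0.035, edgeR adjusted p = 1.06e-09). Both groups of libraries were clearly apart. The genes stand head to head on chromosome 2: HADHA begins at 26244632 on the minus strand and HADHB at 26244939 on the plus strand.

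Both subunit genes rose and their starts face each other, so the 250 bases before the HADHB start (chr2:26244689-26244938, plus strand, RefSeq, GRCh38.p14) are shown, with GC boxes in capitals.
HADHB: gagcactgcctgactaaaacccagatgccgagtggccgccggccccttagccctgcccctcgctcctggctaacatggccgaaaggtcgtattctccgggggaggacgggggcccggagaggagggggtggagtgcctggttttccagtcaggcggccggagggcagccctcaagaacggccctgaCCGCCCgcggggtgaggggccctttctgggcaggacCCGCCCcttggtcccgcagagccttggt
GC boxes lie 64 and 28 bases before the HADHB start, and no CCAAT box is in this window.

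Of the transcription factors 1 of 3 passed. PPARG, the adipogenic factor and the one with the most counts of the 3, had 47.6, 44.6 and 46.0 CPM in wild type and 48.8, 49.4 and 46.2 CPM in knockout. The groups overlapped (log2 fold change 0.01, SE 0.054, edgeR adjusted p = 0.864). PPARA, which drives oxidation genes, rose from 17.6 ± 1.7 to 22.5 ± 1.79 CPM (0.31, edgeR adjusted p = 0.00373). MLXIPL, which encodes the carbohydrate-responsive factor ChREBP, had 9, 16 and 14 counts in wild type and 19, 16 and 26 in knockout and did not pass (0.66, edgeR adjusted p = 0.185).

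Regulators outside the 40 genes were read from a list of 23, of which 21 were tested: 6 rose, 11 fell and 4 did not pass. INSIG1, which holds SREBP in the endoplasmic reticulum and is itself an SREBP target, fell most, from 104 ± 5.09 to 11.3 ± 0.478 CPM (log2 fold change -3.26). SREBF2, which drives sterol genes, fell from 164 ± 2.63 to 74.3 ± 4.3 CPM (-1.20). SREBF1, which drives fatty acid synthesis genes, had 60.1, 62.9 and 59.9 CPM in wild type and 61.3, 64.1 and 63.5 CPM in knockout. The groups overlapped and it did not pass (-0.01, edgeR adjusted p = 0.872). SCAP, the SREBP escort, fell from 83.2 ± 4.71 to 70.4 ± 1.62 CPM (-0.30). MLX, the partner of ChREBP, fell from 95.3 ± 1.89 to 41.2 ± 0.777 CPM (-1.26). PPARGC1A, which encodes PGC-1alpha, rose from 1.63 ± 0.249 to 9.10 ± 1.03 CPM (2.42), and NR1H3, the liver X receptor alpha gene, rose from 9.11 ± 0.413 to 14.4 ± 1.18 CPM (0.61). PPARD, the third PPAR gene, named after its values were seen, fell from 102 ± 3.13 to 44.4 ± 1.3 CPM (-1.26).

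Further oxidation genes mostly rose. Of 34 listed, 31 were tested: 21 rose, 5 fell and 5 did not pass, with a median of 0.47. PDK4, which spares pyruvate when fat is burned, rose from 0.504 ± 0.205 to 5.26 ± 0.574 CPM (log2 fold change 3.32), and ACAA2, the mitochondrial thiolase, from 17 ± 0.296 to 48.7 ± 2.01 CPM (1.46). The largest falls were in peroxisomal genes: ACAA1, the peroxisomal thiolase, from 39.6 ± 3.33 to 24.1 ± 0.986 CPM (-0.77), and CROT, a peroxisomal carnitine transferase, from 14.8 ± 0.672 to 12 ± 0.812 CPM (-0.36).

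Further storage and release genes mostly fell. Of 27 listed, 17 were tested: 10 fell, 4 rose and 3 did not pass, with a median of -0.67. G0S2, an inhibitor of PNPLA2, fell from 123 ± 4.7 to 22.9 ± 0.885 CPM (-2.48) and LIPA, the lysosomal acid lipase, from 341 ± 6.0 to 118 ± 2.42 CPM (-1.59). AGPAT4, an acyltransferase, rose from 4.74 ± 0.141 to 20.7 ± 2.66 CPM (2.07) and GPAT4, which makes lysophosphatidate, from 91.9 ± 5.21 to 160 ± 5.91 CPM (0.74).

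For uptake and activation, 13 of 21 listed genes were tested, of which 6 fell, 4 rose and 3 did not pass (median -0.27). SLC27A2, a fatty acid transporter and acyl-CoA synthetase, fell from 8.21 ± 0.801 to 3.05 ± 0.441 CPM (-1.48). SLC27A1 of the same family rose from 8.30 ± 0.125 to 19 ± 2.01 CPM (1.14). ACSBG2, at 0.170 ± 0.107 and 0.553 ± 0.0812 CPM (1.63), was called higher. In wild type only library a reached the filter minimum (0.2467 against 0.2447 CPM), so it passed through the knockout libraries and that direction was favoured.

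Of 12 further synthesis genes 9 were tested: 5 fell, 2 rose and 2 did not pass (median -0.23). The largest falls were MCAT, the mitochondrial malonyl transferase, from 18.9 ± 1.09 to 11.4 ± 0.433 CPM (-0.78), and ACSS1, the mitochondrial acetyl-CoA synthetase, from 5.70 ± 0.6 to 3.52 ± 0.533 CPM (-0.75). MECR (0.28) and IDH1 (0.19) rose. Of 11 further elongation and desaturation genes 10 were tested: 5 rose, 4 fell and 1 did not pass (median 0.07). HACD1, a dehydratase of the elongation cycle, rose from 5.95 ± 0.128 to 16.5 ± 0.626 CPM (1.42), HACD4 rose by 0.80, and CYB5A, an electron donor to desaturases, fell by 0.59. ELOVL3 fell near the threshold (-0.81, edgeR adjusted p = 0.0477), with overlapping groups.

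**Figure D4:**
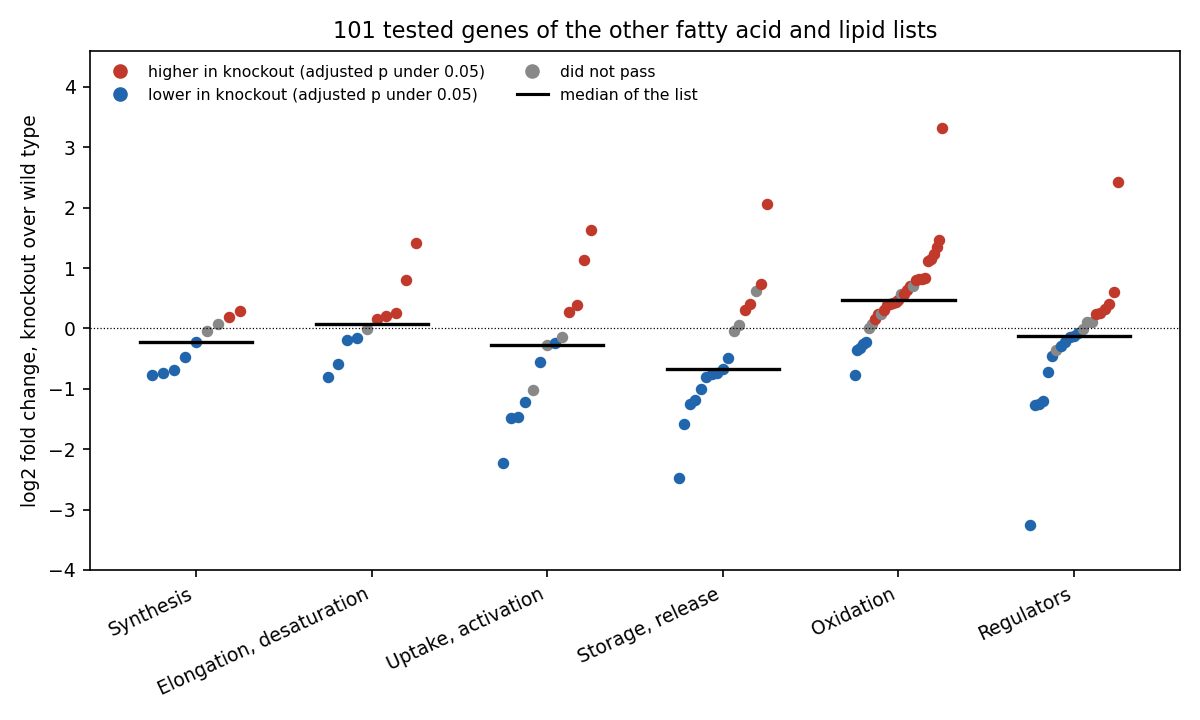
Log2 fold change (y axis, knockout over wild type) of the 101 tested genes on 6 further lists, 1 point per gene, with each list's median as a line. The oxidation list has its median at 0.47 and the storage and release list at -0.67.

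Partners of a family were compared within each library as the log2 ratio of their counts, for 8 pairs. In all 8 the 3 knockout libraries lay on one side of the 3 wild-type libraries, which gives an exact two-sided permutation p of 0.1, the smallest possible with 3 against 3 (0.1 after adjustment over the 8 pairs). Single genes did so in 77.3% of all genes tested, and the share among other pairs was not worked out. These pairs were also chosen with earlier results known, so the count says little about these families. SCD/SCD5 moved from 5.24 ± 0.068 to 2.36 ± 0.06, a shift of -2.88. ACACA/ACACB moved from -0.88 ± 0.025 to -3.66 ± 0.77, a shift of -2.78 that became -3.12 without knockout library a and -2.36 without knockout library c. LPIN1/LPIN2 moved from 0.61 ± 0.093 to -1.09 ± 0.017 and DGAT1/DGAT2 from -0.01 ± 0.132 to 1.32 ± 0.012. The smallest shift was in FADS1/FADS2, from 2.94 ± 0.045 to 2.71 ± 0.061. ELOVL5/ELOVL6 shifted by 0.46, PLIN2/PLIN3 by 0.39 and ACSL3/ACSL4 by -0.34.

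Each tested member was also set beside the median of the tested genes within 5 Mb. These medians ran from -0.56 around MLXIPL to 0.62 around ACADL, and 34 of 37 genes lay on the same side of their neighbours as of 0. Any gene that changed by more than its neighbours' median does so by construction. The share over all genes tested was not worked out, so this count says little about these genes. FASN fell by 1.84 where its neighbours had a median of -0.43. CPT1A rose by 1.10 among neighbours with a median of -0.44, a distance of 1.54. SCD (-0.03), SCD5 (-0.09), LPIN1 (0.09) and ACACB (-0.10) had neighbours near 0. Others lay close to their surroundings. ACADM changed by 0.45 among neighbours at 0.43, LPIN2 by 0.38 among 0.44 (0.11 within 10 Mb), and FADS2 by -0.40 among -0.43. ACADL lay 2.21 above neighbours whose median was 0.62, or 0.18 within 10 Mb. The part of the neighbourhood in any of these changes was not tested.

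**Figure D5:**
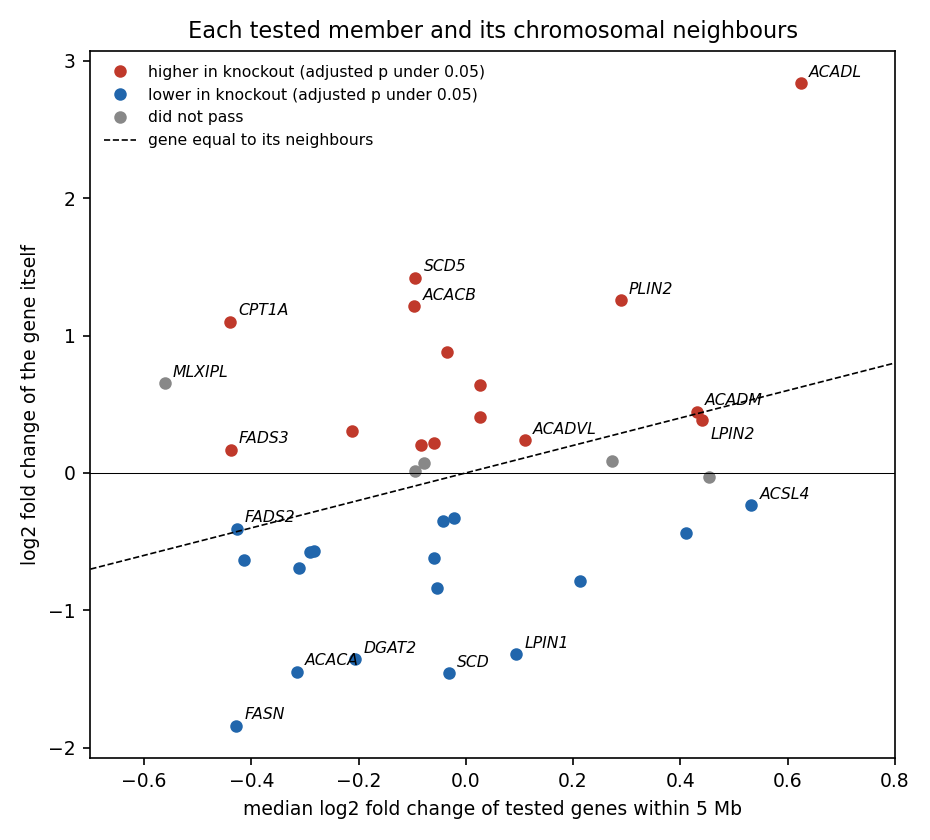
Log2 fold change of each tested member (y axis) against the median of tested genes within 5 Mb (x axis), with a dashed line where they are equal. ACADM, LPIN2 and FADS2 lie on the line, and FASN, SCD, LPIN1, SCD5, ACACB and CPT1A far from it.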

How the data were processed

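The authors deposited 1 table of raw read counts per gene symbol for the 6 libraries, with no normalization, per the file headers. Trimmomatic 0.33, FastQC, HISAT2, edgeR and the build hg38 are named in the submitters' processing notes. Libraries were TruSeq stranded mRNA libraries, per the labels' protocols. Not given in the sources used here are the program that counted reads, its strand setting and its gene annotation. Of 26485 rows, 28 carried date-like names and stayed in totals and tests, unnamed.

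The test was that of edgeR 4.0.16 (R 4.3.3) with filterByExpr (10 counts at the median library, 0.245 CPM, in 3 libraries), TMM, a quasi-likelihood F test without covariates and Benjamini-Hochberg adjustment over 14405 genes. Standard errors are the fold change over the square root of F. Libraries of a group differed beyond sampling noise (chi-square per degree of freedom 4.18 to 7.6). On simulated counts for these genes, 100%, 94%, 94% and 60% of 50 genes each changed 4-, 2-, 1.5- and 1.25-fold were recovered, and 6.45% of calls were unchanged genes. The simulation changed only 200 of 14229 genes, whereas 74.4% were called in the data, so these shares do not carry over. Members, lists and pairs were chosen with earlier results of these data known. Members that passed and changed 2-fold, the most abundant of each step and untested ones are given by library; of other lists, the 2 largest rises and falls, with AQP1, SREBF1, SREBF2, SCAP and INSIG1 always named; items withheld for evaluation are not reported here. Exon lengths came from GENCODE 29 and coordinates and promoters from RefSeq (GRCh38). The motifs were chosen after the results were seen. Reads of PCR copies are not independent molecules, so counting error is all that intervals and floors include. Tried as alternatives were no filter, 1 CPM in 3 libraries, RLE factors, scaling by library totals alone, DESeq2 1.42.0, limma-voom (limma 3.58.1), the letters as a block, an adjusted p of 0.01, glmTreat against 1.5-fold and each library left out.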

Additional observations from a re-analysis of the deposited data

How the results depend on the processing

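Tested against a 1.5-fold change (glmTreat), 6 members were higher and 9 lower, against 15 and 17 in the main test, and 15 other lipid genes were higher and 19 lower, against 42 and 41. Over all genes tested, glmTreat called 16.5% higher and 13.7% lower. Of the beta-oxidation genes CPT2, ACADVL, ACADM, HADHA and HADHB lost their call, and CPT1A and ACADL kept it. All listed acyl-CoA synthetases lost it, as did the elongases ELOVL5 and ELOVL7, while ELOVL1 and ELOVL6 kept it. ACSS2, FADS2, FADS3, GPAM, LPIN2 and PPARA lost it as well. Under every other alternative run, 14 to 17 members were higher and 16 or 17 lower; the 16 came without ACACA, ACADL and MLXIPL, an alternative added after seeing the data. The sign differed in 2 genes that did not pass: DGAT1 was 0.0243 with library totals alone and -0.099 to 0.0217 with 1 library left out, and PPARG was -0.0167 to 0.0615 with 1 library left out. FABP5 passed under RLE factors, library totals alone, the 1 CPM filter, the block, and without wild-type library b or knockout library c (log2 fold changes of 0.0882 to 0.1423). With the letters as a replicate block, 16 members were higher and 17 lower. Same-letter libraries had deviations correlated at 0.0981, -0.0166 and 0.0097, so the letters were not taken to pair the samples, and not every library correlated best with its own letter. With 3 libraries of 1 clone each, the replicates give no measure of variation between clones.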

Other observations

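The 250 bases before the RefSeq start of 36 of the 40 genes were searched on both strands for 6 motifs, as a description. FASN, FABP5, DGAT1 and DGAT2 were not searched. The SREBP element core CACCCCAC was in 1 window, that of PNPLA2, where 2.43% of all promoter windows hold it, and CACGCCAC was in 0 (0.655% of all). The E-box CACGTG was in 3 (ELOVL4, ELOVL5 and PLIN2; 6.34% of all), and the direct repeat DR1, a PPAR element, in 0 (0.0171% of all). CCAAT was in 6 of 15 windows of genes that fell and 4 of 15 of genes that rose (32% of all windows). GGGCGG was in 12 of 15 and 10 of 15 (42.6% of all), and the contrast between these groups was not tested. In 33 of the 36 genes the bases after the window matched a GENCODE transcript of the gene, but not in ACACA, FADS2 and FADS3. Matches of different motifs overlapped once. A missing match says only that these letters are not in this window.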
